A study of Mus musculus with 6 samples.

Results

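The genes described here are 9 that make, move, sense or clear the lysophospholipids lysophosphatidic acid (LPA) and sphingosine-1-phosphate (S1P): Enpp2, Sphk1, Sphk2, Spns2, S1pr1, S1pr3, Sgpl1, Ppap2b and Lpar6. They were taken by exact gene symbol from the 24457 genes of each table, and all 9 were among the 11717 genes that were tested. RNA was sequenced from 3 subsets of thymic endothelial cells (ECs) of female wildtype C57BL/6 mice, aged 4 to 6 weeks by the sample labels, with a slightly older range in the study's methods. Cells positive for CD31 and negative for CD45 and EpCAM were taken by flow cytometry, with a stated purity of at least 90%, and were divided by the surface markers Ly6C and P-selectin into type I (Ly6c+ Selp-), type II (Ly6c+ Selp+) and type III (Ly6c- Selp+) ECs, with 2 libraries each and 6 in all. The study examined type III ECs as a site where blood-borne progenitors enter the thymus. No source says whether the 2 libraries of a subset came from separate animals or sorts, so p-values measure the spread between these libraries, which may be technical.

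LPA and S1P are small signalling lipids that act on G protein-coupled receptors of ECs and lymphocytes. LPA outside the cell is made mainly by autotaxin, the secreted enzyme encoded by Enpp2, which high endothelial venules of lymph nodes are known to express. S1P is made inside cells by the sphingosine kinases, leaves ECs through the transporter Spns2, is cleaved by the lyase Sgpl1 and is dephosphorylated by lipid phosphate phosphatases such as the product of Ppap2b, which also degrades LPA. A gradient of S1P between tissue and blood is known to guide mature T cells out of the thymus.

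Levels are given as FPKM, the fragments of a gene scaled by transcript length and by library depth. Comparisons of FPKM between genes are approximate, since the gene annotation used is not given. The summed FPKM was 221458 to 300932 per library, and the depth read back from the authors' interval bounds, as if these held counting error alone, was 1452476 to 2423171 fragments. On that reading a member's value in 1 library rested on 20 to 2000 fragments. Differences are on the log2(FPKM + 1) scale and were tested with limma over all 11717 genes, with p-values adjusted over all of them and called under 0.05. The median difference over all genes was 0.08 for type III against type I, -0.06 for type II against type I and 0.13 for type III against type II, and members' changes are to be read relative to these shifts. No member's difference between 2 subsets changed sign when the libraries were rescaled in 3 ways.

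The sort markers followed the labels: Ly6c1 had a mean FPKM of 851, 436 and 79.7 in type I, II and III ECs, and Selp one of 6.54, 364 and 591. All 10 endothelial markers had an FPKM of at least 1 in every library, with sums of 2340 to 3045, and 1 was higher and 2 were lower in type III than in type I ECs. Of markers of other cells, the summed FPKM of 9 mesenchymal and mural genes was 124 to 225 in type I, 251 to 355 in type II and 129 to 170 in type III ECs, and none was at 0 in all libraries. That of 10 haematopoietic genes was 44.6 to 262, 52.1 to 109 and 109 to 456, that of 8 thymic epithelial genes 24.0 to 88.7, 33.5 to 63.0 and 19.3 to 86.3, that of 5 lymphatic genes 18.7 to 23.9, 9.85 to 12.4 and 13.3 to 30.1, and that of 4 erythroid genes 84.2 to 140.0, 26.3 to 51.1 and 0 to 10.8. In type III against type I ECs, 1 mesenchymal and mural gene (Pdgfrb) and 2 erythroid rows were lower, and no haematopoietic, epithelial or lymphatic marker was called. The lymphatic sum hides opposite orders. Flt4 had means of 18.4, 7.11 and 8.30, and Prox1 means of 0.42, 0.81 and 3.14. Lyve1 had an FPKM of 0 and 0 in type I, 0 and 0.11 in type II, and 12.4 and 1.07 in type III ECs. Pdpn had means of 2.45, 3.14 and 3.54, and Ccl21a was at 0. In bulk RNA, fewer cells that express a gene and less of its RNA per cell cannot be told apart.

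Enpp2 rose and Ppap2b fell from type I to type III ECs. These were 2 of 9 members past the threshold in that comparison, where 4.14% of all tested genes were called, 245 higher and 240 lower, or 275 higher and 126 lower without type I replicate 1. The other 7 members did not pass. In 7 of 9 members the type III and type I libraries did not overlap, with Enpp2, Sphk1 and Spns2 higher and S1pr1, S1pr3, Ppap2b and Lpar6 lower. Such a separation was found for 37.9% of all tested genes.

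**Figure D1:**
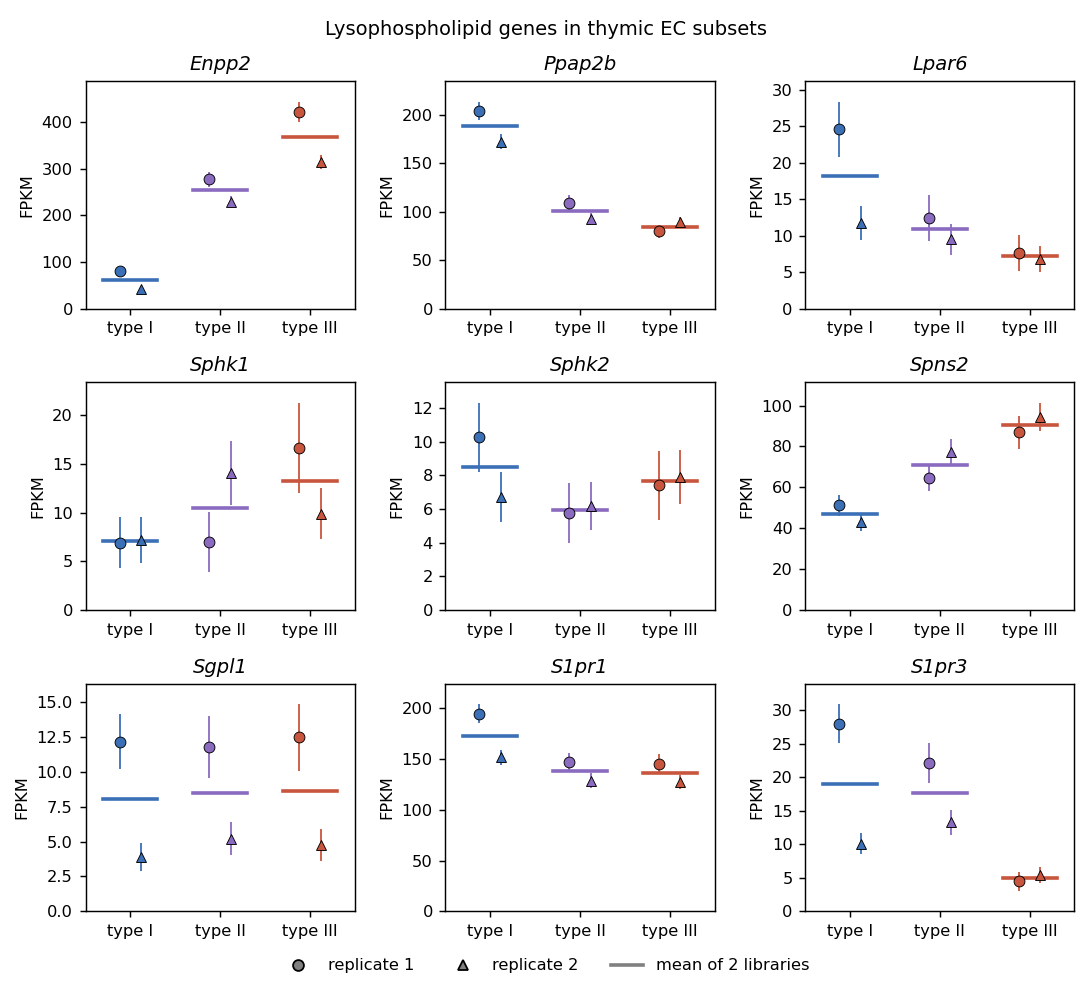
FPKM of the 9 members (vertical axes, linear from 0) in type I, II and III ECs, with circles for replicate 1, triangles for replicate 2, vertical bars for the authors' 95% bounds of each library and horizontal lines for the mean of 2 libraries. Enpp2 lies lowest and Ppap2b highest in type I ECs, S1pr3 lies at 4.46 and 5.43 in type III ECs, and Sgpl1 is higher in replicate 1 of every subset.

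Autotaxin RNA had the largest difference of the 9 members between type III and type I ECs. Enpp2 (mm9 chromosome 15, 54670234 to 54751701, minus strand) had an FPKM of 81.5 and 42.8 in type I, 278 and 229 in type II, and 422 and 314 in type III ECs. Both type II libraries lay above both type I libraries, and both type III libraries lay above all others. The mean rose from 62.1 ± 27.3 (SD, n = 2) to 254 ± 34.2 and 368 ± 76.0. Between type III and type I ECs the difference was 2.60 with a standard error of 0.32 (limma adjusted p = 0.00254), and it stayed past the threshold under all 15 other settings tried. Type II against type I ECs, it was 2.08 with a standard error of 0.32 (limma adjusted p = 0.0434), which was called under 8 of 15 other settings and was lost without type I replicate 2 (limma adjusted p = 0.0853), type II replicate 1 (0.192) or type II replicate 2 (0.142).

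From type II to type III ECs the Enpp2 difference was 0.53, with a 95% interval of -0.21 to 1.26 (limma adjusted p = 0.662). Type II ECs thus stood at 0.80 of the way from the type I to the type III mean on the log2 scale. A contrast that asks whether the first step differs in size from the second gave 1.55 for Enpp2 (limma adjusted p = 0.846). In that contrast limma passed 0 of 9 members, of which 1, Enpp2, had an unadjusted p under 0.05. Of all 11717 genes 0.0427% passed and 658 had an unadjusted p under 0.05. The fibroblast markers Dcn and Lum did not share the order of Enpp2, with mean FPKM of 38.5, 93.7 and 42.7 for Dcn and 6.41, 19.1 and 6.77 for Lum. Some other markers did, such as Lyve1 (0, 0.06 and 6.74), Prox1 (0.42, 0.81 and 3.14), Cd3e (6.36, 8.78 and 11.2) and Cd8a (5.73, 6.24 and 9.83). The haematopoietic markers Ptprc (6.74, 5.26 and 18.3), Cd4 (7.95, 5.31 and 15.8) and Rag1 (7.45, 4.92 and 11.5) did not, being lowest in type II ECs. Nor did Lyz2 (97.6, 39.1 and 171) and Cd52 (20.5, 10.5 and 43.0). The part that RNA of other cells had in the Enpp2 difference was not tested.

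Enpp2 belongs to the ectonucleotide pyrophosphatase and phosphodiesterase genes. Of 6 listed genes of that family 5 were tested, and Enpp2 was the 1 called. Enpp3 had a mean FPKM of 20.5, 11.8 and 16.4 in type I, II and III ECs and Enpp4 one of 13.2, 14.2 and 11.6. Enpp2 was above both in each subset mean.

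The genes most like Enpp2 over the 6 libraries, by the root mean square difference of log2(FPKM + 1) centred on each gene's mean among 4867 genes, were Gpr1 (0.15), Il6st (0.17), Hspb8 (0.23) and Egln3 (0.25). Gpr1 encodes a chemerin receptor and Il6st the shared gp130 chain of interleukin-6 family receptors. Il6st had a mean FPKM of 97.5, 393 and 535. The 4 genes were chosen by this likeness over 6 libraries, and no test was made of it.

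Ppap2b, which encodes a membrane phosphatase that removes the phosphate of LPA and S1P outside the cell, went the other way. Its FPKM (mm9 chromosome 4, 104829952 to 104905372, plus strand) was 204 and 172 in type I, 109 and 92.9 in type II, and 79.8 and 89.4 in type III ECs. The libraries of the 3 subsets did not overlap, and their means were 188 ± 22.5, 101 ± 11.7 and 84.6 ± 6.79 (SD, n = 2). For type III against type I ECs the difference was -1.14 with a standard error of 0.23 (limma adjusted p = 0.0261). This call rested on the fit as a whole, since 7 of 15 other settings kept it, and without any 1 library other than type I replicate 2 the limma adjusted p was 0.0607 to 0.204, while the difference stayed between -1.02 and -1.32 under all 15 settings. Type II against type I ECs it was -0.89 (limma adjusted p = 0.223) and type III against type II ECs -0.25 (limma adjusted p = 0.793).

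The closest genes to Ppap2b were Thbd (0.04), Tnfrsf10b (0.06), Cmpk2 (0.07) and Impdh1 (0.07), by the same measure. Thbd encodes thrombomodulin, the endothelial receptor that turns thrombin towards anticoagulation. It had an FPKM of 153 and 125 in type I, 81.6 and 66.2 in type II, and 55.9 and 62.9 in type III ECs.

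Within 1 library the ratio of Enpp2 to Ppap2b needs no scaling between libraries. It was 0.40 and 0.25 in type I, 2.54 and 2.47 in type II, and 5.28 and 3.51 in type III ECs. By FPKM, Ppap2b was thus the higher of the pair in type I ECs, and Enpp2 in type II and type III ECs. The log2 ratio, with 1 added to each FPKM, was 3.74 higher in type III than in type I ECs (exact permutation test, two-sided, p = 0.333, the smallest p that 2 against 2 libraries allow).

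Lpar6, an LPA receptor coupled to G12 and G13 proteins, was the main LPA receptor RNA in these cells. Its FPKM was 24.6 and 11.7 in type I, 12.4 and 9.49 in type II, and 7.67 and 6.85 in type III ECs. Type I and type II libraries overlapped, while type III libraries lay below all others. The difference of type III against type I ECs was -1.13 with a standard error of 0.36 (limma adjusted p = 0.159), and it passed under each of 3 scalings between libraries (adjusted p = 0.0272 to 0.032). Without type I replicate 2 it was -1.63 and passed (limma adjusted p = 0.0483), while without type I replicate 1 it was -0.62 (limma adjusted p = 0.427). With the replicate number as a block it passed (limma adjusted p = 0.0326).

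Lpar6 took 67.5% to 90.5% of the summed FPKM of Lpar1 to Lpar6 in a library. Of the 5 other LPA receptor genes 3 were tested and none was called. Lpar1, the highest of them in type II ECs, had a mean FPKM of 0.63, 1.79 and 0.90, Lpar4 one of 1.72, 1.29 and 0.72, and Lpar3 was listed at 0 in every library. The gene (mm9 chromosome 14, 73637698 to 73640165, plus strand) has 1 annotated exon, which overlaps an annotated exon of Rb1 on the other strand. The sources used here do not say that strand was kept in counting, so reads of the pair may not be told apart. Rb1 had an FPKM of 9.64 and 3.69 in type I, 6.74 and 3.95 in type II, and 8.24 and 4.03 in type III ECs, an order of the subsets that Lpar6 did not share. The genes most like Lpar6 were Rassf1 (0.13), Btg2 (0.13), Txnip (0.14) and Jam3 (0.15).

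**Figure D2:**
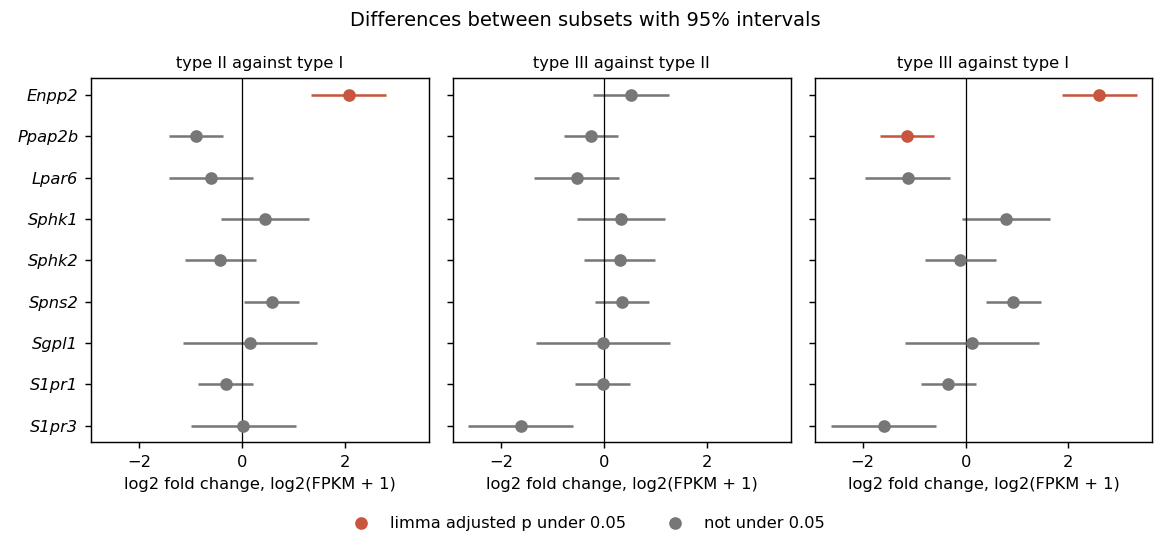
Difference in log2(FPKM + 1) for each of the 9 members between type II and type I, type III and type II, and type III and type I ECs (horizontal axes), with points for the limma estimate, bars for its 95% interval and red for an adjusted p under 0.05. Enpp2 is past the threshold in both comparisons with type I ECs, Ppap2b in type III against type I ECs, and no member in type III against type II ECs.

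None of the S1P kinases, exporter, lyase and receptors among the members passed in the fit of all libraries without rescaling or the replicate number. The exporter had the lowest adjusted p in that fit. The study's own list of genes differing between type I and type III ECs, made with Cuffdiff, holds Spns2 and S1pr3 besides Enpp2 and Ppap2b. Spns2, the transporter by which ECs release S1P, had an FPKM of 51.3 and 43.1 in type I, 64.6 and 77.4 in type II, and 86.9 and 94.4 in type III ECs. The 3 subsets did not overlap in these deposited FPKM, and the means were 47.2 ± 5.82, 71.0 ± 9.03 and 90.6 ± 5.23 (SD, n = 2). The FPKM printed with the study's list differ from the deposited ones, and there the type II and type III libraries overlap for Spns2. Type III against type I ECs, the difference was 0.93 with a standard error of 0.24 and a 95% interval of 0.40 to 1.46, short of the threshold (limma adjusted p = 0.0674), and with the replicate number as a block it passed (limma adjusted p = 0.0178). The first step was 0.58 (limma adjusted p = 0.6) and the second 0.35 (limma adjusted p = 0.695). Spns2 (mm9 chromosome 11, 72265140 to 72303422, minus strand) overlaps Mybbp1a on the other strand at its end.

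The ratio of Spns2 to Ppap2b within a library was nearly the same in replicates of type I and of type III ECs. It was 0.251 and 0.250 in type I, 0.591 and 0.833 in type II, and 1.09 and 1.06 in type III ECs. The log2 ratio was 2.07 higher in type III than in type I ECs (exact permutation test, two-sided, p = 0.333, the smallest possible). The pair thus went in opposite directions over the subsets, so their promoters are shown together.

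The 2 windows below run from 250 bases before to 50 after a start listed for each gene, 5′ to 3′ on the gene's strand. They come from RefSeq on GRCm38.p6, a later build than the mm9 of the expression files. Whether a listed start is that of the transcripts measured was not tested. The Spns2 window is chr11:72474978-72475277 on the minus strand and the Ppap2b window, listed there under its newer symbol Plpp3, is chr4:105157097-105157396 on the plus strand. Capitals mark GATAA, the core bound by GATA factors, here read on the other strand as TTATC, which each window held once.
Spns2: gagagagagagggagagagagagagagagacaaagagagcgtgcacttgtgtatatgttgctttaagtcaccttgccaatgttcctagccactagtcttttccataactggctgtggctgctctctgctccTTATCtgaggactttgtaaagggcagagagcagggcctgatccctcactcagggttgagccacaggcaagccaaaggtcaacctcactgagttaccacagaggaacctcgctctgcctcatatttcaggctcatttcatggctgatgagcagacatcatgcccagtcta
Ppap2b: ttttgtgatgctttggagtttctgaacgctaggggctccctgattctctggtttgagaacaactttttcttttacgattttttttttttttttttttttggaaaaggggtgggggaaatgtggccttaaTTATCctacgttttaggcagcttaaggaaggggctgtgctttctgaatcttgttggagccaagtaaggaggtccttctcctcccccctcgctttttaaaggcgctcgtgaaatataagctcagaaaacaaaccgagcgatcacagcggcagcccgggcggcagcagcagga

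GATAA on either strand was found in 25.4% of 32851 promoters of this length. Promoters were listed for 7 of the 9 members, all but Enpp2 and S1pr1, and GATAA was also in that of Lpar6, in 2 of 5 for Sphk1 and in 1 of 2 for Sphk2. CACCC, the core bound by KLF factors, was in 57.5% of promoters, in 4 of 5 for Sphk1 and both for Sphk2, with 2 matches for S1pr3 and 1 each for Ppap2b and Lpar6. CCGGAA, an ETS core, was in 14.9% of promoters and in those of Lpar6 and Sgpl1, in 2 of 5 for Sphk1 and in 1 of 2 for Sphk2. ACAAT, a SOX core, was in 31.0% of promoters and in 1 of 5 for Sphk1 and 1 of 2 for Sphk2. The NF-kB core, searched as a motif with 2 open positions, was in 1.47% and in none of the members' windows. No motif contains another, and a match is a description of these letters only.

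The sphingosine kinases were low and near each other. Sphk1, the kinase found mainly in the cytoplasm, had an FPKM of 6.93 and 7.18 in type I, 6.96 and 14.1 in type II, and 16.6 and 9.90 in type III ECs. Type III libraries lay above type I libraries, and type II libraries spread over both. The difference of type III against type I ECs was 0.78, with a 95% interval of -0.07 to 1.64 (limma adjusted p = 0.419). Its values rested on the fewest fragments of any member, 20 to 72 per library.

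Sphk2, the second kinase, had an FPKM of 10.3 and 6.71 in type I, 5.76 and 6.18 in type II, and 7.42 and 7.92 in type III ECs. Type II ECs were the lowest and the other two subsets overlapped. The differences were -0.10 for type III against type I, -0.42 for type II against type I and 0.31 for type III against type II ECs, with limma adjusted p = 0.943, 0.883 and 0.81. Sphk2 (mm9 chromosome 7, 52964833 to 52973372, minus strand) overlaps Rpl18 and Dbp on the other strand, so some of its reads may belong to them. Sphk1 took 40.3% to 69.5% of the summed FPKM of the pair.

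Sgpl1, the lyase that ends S1P signalling inside the cell, differed between replicates and not detectably between subsets. It had an FPKM of 12.2 and 3.90 in type I, 11.8 and 5.21 in type II, and 12.5 and 4.75 in type III ECs. Replicate 1 was 3.12, 2.26 and 2.63 times replicate 2, while the means of the subsets were 8.04, 8.49 and 8.61. The difference of type III against type I ECs was 0.13, with a 95% interval of -1.17 to 1.44 (limma adjusted p = 0.964). With the replicate number in the fit the interval of the same difference was -0.40 to 0.66 (limma adjusted p = 0.81).

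With the replicate number in the fit, Sgpl1 was 1.23 higher in replicate 1, with a standard error of 0.19 (limma adjusted p = 0.0348, higher in 3 of 3 subsets). In that contrast 1.43% of all genes were called, 165 higher and 2 lower in replicate 1, and the median gene was higher in replicate 1 by 0.39, 0.14 and 0.18 in type I, II and III ECs. After scaling by the median ratio between libraries, the Sgpl1 difference was 0.97 (limma adjusted p = 0.0789). Markers of other cells were mixed. Acta2 was higher in replicate 2 of type II (FPKM of 29.5 and 37.0) and type III ECs (16.9 and 33.8), and Rag1 in that of type II ECs (3.70 and 6.15). Some markers, like Sgpl1, were higher in replicate 1 of every subset. The leukocyte gene Ptprc had an FPKM of 10.6 and 2.88 in type I, 6.05 and 4.47 in type II, and 28.9 and 7.81 in type III ECs, and the thymic epithelial chemokine gene Ccl25 one of 41.4 and 5.67, 39.7 and 15.8, and 36.2 and 5.11. Their part in the Sgpl1 difference was not tested.

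**Figure D3:**
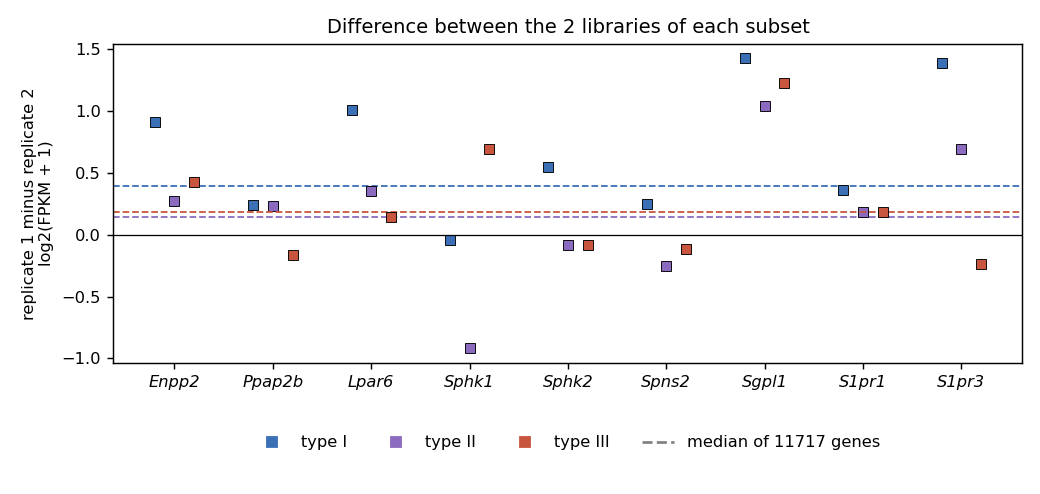
Replicate 1 minus replicate 2 in log2(FPKM + 1) for each member (squares) in type I, II and III ECs, with dashed lines for the median of all tested genes in each subset. Sgpl1 lies at 1.43, 1.04 and 1.23, above the lines in all subsets, while S1pr3 spreads from -0.24 to 1.39.

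The ratio of Sphk1 to Sgpl1 within a library, a kinase against the lyase, was 0.569 and 1.84 in type I, 0.591 and 2.70 in type II, and 1.33 and 2.09 in type III ECs. The subsets overlapped. The log2 ratio was 0.65 higher in type III than in type I ECs (exact permutation test, two-sided, p = 0.667) and took the other sign, -0.08, without type I replicate 1.

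S1pr1 was the dominant S1P receptor RNA of every subset. This receptor keeps EC junctions tight and, on T cells, senses the S1P that leads them out of the thymus. Its FPKM was 195 and 152 in type I, 147 and 129 in type II, and 145 and 127 in type III ECs. The type I libraries lay above the others, and type II and type III libraries overlapped almost wholly. The difference of type III against type I ECs was -0.34, with a 95% interval of -0.87 to 0.20 (limma adjusted p = 0.64), and that of type III against type II ECs was -0.02, with an interval of -0.55 to 0.52 (limma adjusted p = 0.99).

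S1pr3 is a receptor that also couples to Gq and to G12 and G13 proteins and that mural cells of vessels are known to express. Without rescaling or the replicate number, S1pr3 did not pass between any subsets in the fit of all libraries, while the study's Cuffdiff list holds it. It had an FPKM of 28.0 and 10.1 in type I, 22.1 and 13.3 in type II, and 4.46 and 5.43 in type III ECs. Type I and type II libraries overlapped, and both type III libraries lay below them. The difference of type III against type I ECs was -1.60 with a standard error of 0.45 (limma adjusted p = 0.104) and that of type III against type II ECs -1.62 with a standard error of 0.45 (limma adjusted p = 0.24). The first passed under each of 3 scalings (limma adjusted p = 0.0277 to 0.0369) and without type I replicate 2, which took it to -2.29 (limma adjusted p = 0.0195), while without type I replicate 1 it was -0.90 (limma adjusted p = 0.3). It also passed with the replicate number as a block (limma adjusted p = 0.028). From type I to type II ECs it was 0.02 (limma adjusted p = 0.999).

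Several mural cell markers had the same order of libraries as S1pr3 or one close to it. Pdgfrb, the receptor that recruits pericytes, had an FPKM of 39.0 and 24.2 in type I, 33.5 and 25.1 in type II, and 6.40 and 9.43 in type III ECs. From type I to type III ECs it fell by 1.85 on the log2 scale (limma adjusted p = 0.0132). Rgs5, a pericyte gene that dampens G protein signals, had an FPKM of 346 and 114, 284 and 137, and 48.6 and 45.4 (limma adjusted p = 0.0575). The study's Cuffdiff list holds both genes.

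Des and Cspg4 were also lowest on average in type III ECs, with mean FPKM of 29.1, 26.1 and 9.29 and of 3.63, 4.59 and 1.68. Acta2 and Myh11, markers of smooth muscle, went another way, with means of 10.6, 33.2 and 25.4 and of 13.5, 33.8 and 23.9. The genes most like S1pr3 over the 6 libraries were Gm13889 (0.22), Vtn (0.24), Ano1 (0.24) and Gucy1a3 (0.25), of which Gucy1a3 encodes a subunit of the nitric oxide receptor of mural cells. The part that RNA of mural cells had in the S1pr3 difference was not tested.

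**Figure D4:**
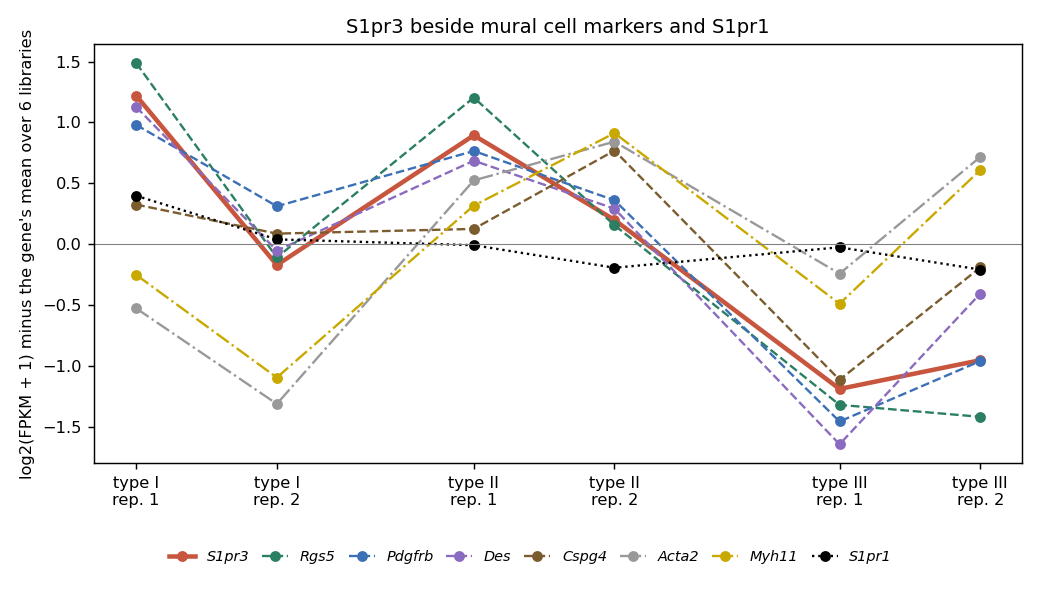
Log2(FPKM + 1) minus the gene's mean over the 6 libraries (vertical axis) for S1pr3, the mural markers Rgs5, Pdgfrb, Des, Cspg4, Acta2 and Myh11, and S1pr1, in each library, with lines only to link the points of a gene. S1pr3, Rgs5, Pdgfrb, Des and Cspg4 are lowest in both type III libraries, Acta2 and Myh11 are lowest in type I replicate 2, and S1pr1 stays within a narrow range.

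Within the S1P receptor family, S1pr1 took 84.3% and 88.8% of the summed FPKM of S1pr1 to S1pr5 in type I, 83.8% and 86.9% in type II, and 94.9% and 92.9% in type III ECs. S1pr3 took 12.1% and 5.90%, 12.7% and 8.97%, and 2.92% and 3.96%. The ratio of S1pr3 to S1pr1 was thus 0.144 and 0.066 in type I and 0.031 and 0.043 in type III ECs, a log2 difference of -1.26 with 1 added to each FPKM (exact permutation test, two-sided, p = 0.333, the smallest possible).

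Of the 3 other S1P receptor genes 2 were tested and none was called. S1pr4, a receptor best known from lymphocytes, had an FPKM of 6.10 and 7.80 in type I, 4.03 and 4.30 in type II, and 1.63 and 2.95 in type III ECs, with a difference of -1.30 for type III against type I ECs (limma adjusted p = 0.0776). The subsets did not overlap. The haematopoietic marker Ptprc did not share this order, while both rows of the erythroid marker Hba-a1 did. Their means were 49.7, 7.38 and 1.42 and 25.2, 6.23 and 0. The part that RNA of other cells had in the S1pr4 difference was not tested. S1pr2 had means of 1.62, 1.97 and 1.54, and S1pr5 was listed at 0 in every library.

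Over the 9 members, the steps between neighbouring subsets gave few calls. Type II against type I ECs, 1 of 9 members was called, Enpp2, where 0.393% of all genes were, 38 higher and 8 lower. With the 3 scalings the split of all genes was 65 and 29, 73 and 30, or 74 and 28. The libraries did not overlap in 5 of 9 members, with Enpp2 and Spns2 higher and Sphk2, S1pr1 and Ppap2b lower, against 33.6% of all genes.

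Type III against type II ECs, limma called 0 of 9 members and 0.222% of all genes, 11 higher and 15 lower. With the 3 scalings the split of all genes was 23 and 61, 22 and 68, or 28 and 98. At an unadjusted p under 0.05 there was 1 of 9 members, S1pr3, beside 1170 of all 11717 genes. The libraries did not overlap in 6 of 9 members, with Enpp2, Sphk2 and Spns2 higher and S1pr3, Ppap2b and Lpar6 lower, against 41.0% of all genes.

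The rest of the pathway was read from lists of 80 further genes, of which 64 were tested. Type III against type I ECs, 5 of the 64 were higher and 2 lower, beside 4.14% of all genes called, with a median difference of 0.08, that of all genes being 0.08 as well, and none was called in the other comparisons between 2 subsets. The counts of each list below stand beside the same 4.14% of all genes. Single genes of the lists were not followed under the other settings, so how far their calls depend on the fit was not tested. Some of the 7 touched the same steps as the members.

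Among 10 other tested genes of LPA production and removal, 1 was higher and 2 were lower, with a median of -0.45. Ppap2a, a second lipid phosphate phosphatase, had an FPKM of 77.2 and 71.4 in type I, 40.5 and 23.3 in type II, and 21.9 and 15.2 in type III ECs, a difference of -1.96 between type III and type I (limma adjusted p = 0.00873). Ppap2c, the remaining one, went up from 2.21 and 1.59 to 3.51 and 2.98 and to 9.29 and 7.70, a difference of 1.71 (limma adjusted p = 0.0175). Ppap2b kept 70.2% to 79.6% of the summed FPKM of the 3 genes in every library, while the sum was 283 and 245 in type I, 153 and 119 in type II, and 111 and 112 in type III ECs.

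Mgll, a monoacylglycerol lipase, had an FPKM of 151 and 127 in type I, 78.3 and 75.0 in type II, and 37.3 and 34.3 in type III ECs, a difference of -1.92 (limma adjusted p = 0.00188). Lipg, the endothelial lipase, had means of 3.37, 7.35 and 10.9 (limma adjusted p = 0.0825), while the study's Cuffdiff list holds it. The phosphatases stood on the S1P breakdown list too, where 3 genes besides the members were tested, 1 was higher and 1 lower, and Sgpp1, an S1P phosphatase inside the cell, had means of 4.46, 2.69 and 4.31 (limma adjusted p = 0.979).

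Among 4 other tested genes of S1P production and export 1 was higher. Abca1, a lipid exporter best known for loading cholesterol onto apolipoprotein A-I, had an FPKM of 38.2 and 35.5 in type I, 61.6 and 76.4 in type II, and 83.8 and 98.5 in type III ECs, a difference of 1.28 (limma adjusted p = 0.0171). Its order over the subsets was that of Spns2. Abcg2, another exporter, had means of 36.4, 47.1 and 63.7 (limma adjusted p = 0.357).

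Of 20 tested genes of sphingosine and ceramide supply 2 were higher and none lower, beside 4.14% of all genes called, with a median of 0.31. Both encode alkaline ceramidases, which release the sphingosine that the kinases use. Acer2 had an FPKM of 21.8 and 24.0 in type I, 40.8 and 39.0 in type II, and 44.5 and 57.3 in type III ECs, a difference of 1.11 (limma adjusted p = 0.0392). Acer3 had an FPKM of 2.06 and 1.06, 5.01 and 4.88, and 7.84 and 5.36, a difference of 1.58 (limma adjusted p = 0.0404). Ugcg, which turns ceramide to glucosylceramide, had means of 26.5, 39.6 and 55.0 (limma adjusted p = 0.173), while the study's Cuffdiff list holds it.

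Of the 2 beta-arrestin genes listed, 1 was higher. Arrb1, the beta-arrestin that binds active receptors and takes them off the surface, had an FPKM of 12.8 and 11.2 in type I, 31.9 and 42.9 in type II, and 54.9 and 63.1 in type III ECs, a difference of 2.21 (limma adjusted p = 0.00181). Its relative Arrb2 had means of 6.58, 5.12 and 8.74 (limma adjusted p = 0.957).

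**Figure D5:**
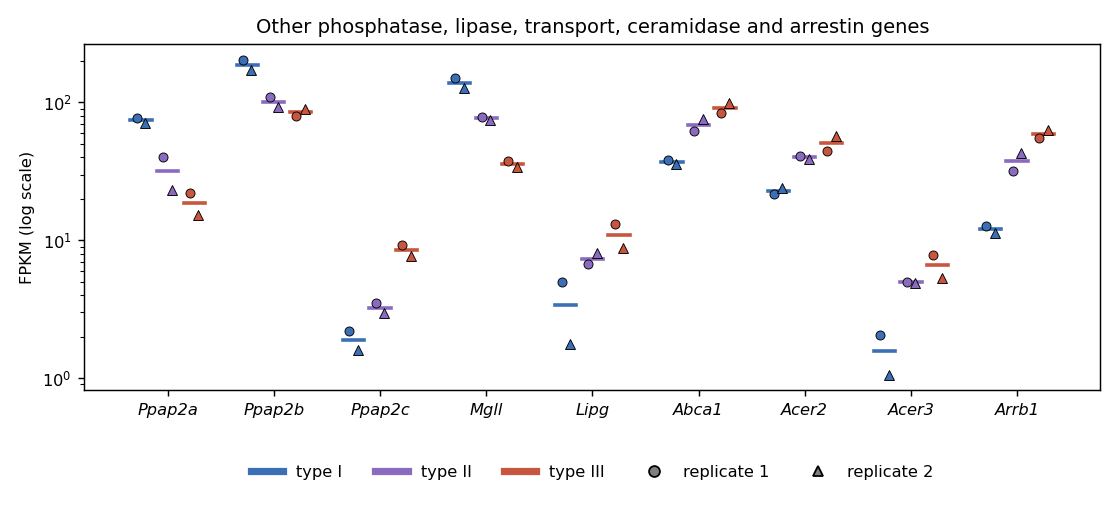
FPKM on a log scale (vertical axis) of Ppap2b and of 8 other lipid phosphatase, lipase, transport, ceramidase and arrestin genes in type I, II and III ECs, with circles for replicate 1, triangles for replicate 2 and horizontal lines for the mean. Ppap2a, Ppap2b and Mgll step down and Ppap2c, Abca1, Acer2, Acer3 and Arrb1 step up from type I to type III ECs, and Lipg, with 1.78 to 4.97 in type I ECs, did not pass the test.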

How the data were processed

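RNA of sorted thymic ECs was prepared with a NEBNext Ultra RNA kit. The submitters' processing notes name CASAVA 1.8, TopHat2 2.0.10, Cufflinks 2.1.1, Cuffdiff and the genome build mm9. The gene annotation is not given in the sources used here. The authors deposited FPKM per gene for each library, with 95% bounds, unpooled. Here 95 spike-in and reporter rows were left out, and genes reaching an FPKM of 1 in 2 or more libraries were tested as log2(FPKM + 1), which understates the change of low genes, without rescaling, in limma 3.58.1 (R 4.3.3; lmFit, eBayes with trend, Benjamini-Hochberg adjustment), with 1 mean per subset. The study used Cuffdiff, which cannot be run on FPKM. The precision is limited by 2 libraries per subset. Coordinates are those of the deposited tables on mm9, and strand and overlaps come from GENCODE mouse release M1 on the same assembly. The members and lists were chosen with earlier results of these data known. All members are named; list genes are named where called in type III against type I ECs or by level. Likeness was computed for members whose subset means span at least 1. Other pseudocounts, filters, scalings, a replicate block and leaving out each library were tried as alternatives. The count of 1 gene list is not reported here.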

Additional observations from a re-analysis of the deposited data

How the results depend on the processing

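Of the members' calls, that of Enpp2 in type III against type I ECs held under every setting, and no other member was past the threshold under all. For type III against type I ECs, 485 genes were called, 317 without the filter on low values, and 726, 696 and 694 under scaling to equal summed FPKM, by the median ratio and by quantiles. The 9 members gave 2 calls there, 1 without the filter, without the trend or with only the libraries compared, and 4 under each of these scalings. For type II against type I ECs, 46 genes were called, 12 without the filter, 102, 94 and 103 under the scalings, 15 without the trend and 29 with only the libraries compared, and Enpp2 was lost, leaving 0 members, with a pseudocount of 0.1, without the filter, without the trend and with only the libraries compared. For type III against type II ECs, 26 genes were called, 0 without the filter, 126, 84 and 90 under the scalings, 10 without the trend and 7 with only the libraries compared. For unequal steps, 5 genes were called, 2 without the filter and 1 without the trend, and the Lpar6 value of -0.08 turned to 0.20, 0.11 and 0.13 under the scalings. The cause of these changes was not tested.

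Libraries of different subsets shared only a replicate number, with 2 pairs per comparison. Deviations of same-numbered libraries from their subset means correlated over genes at 0.199 (type I and II), 0.306 (type I and III) and 0.18 (type II and III). With the replicate number as a block, 971, 183, 229 and 15 genes were called in type III against type I, type II against type I, type III against type II ECs and for unequal steps, and 5 members in the first, with Spns2, S1pr3 and Lpar6 added (limma adjusted p = 0.0178, 0.028 and 0.0326). The block and the median-ratio scaling together, added after the data were seen, gave 1183 genes in the first and 6, 2 and 1 members in the 3 comparisons between subsets, and took the Sgpl1 replicate difference to 0.97.

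Leaving out each library in turn gave 233 to 425, 12 to 46, 5 to 47 and 2 to 5 genes, and 1 to 4 members in type III against type I and 0 to 1 in type II against type I ECs. A lone library was assumed to vary like the other subsets. Signs changed for small differences alone. In type III against type I ECs these ran from -0.38 to 0.17 for Sphk2 and from -0.58 to 0.84 for Sgpl1, in type II against type I ECs from -0.016 to 0.90 for Sphk1, -0.67 to 0.72 for S1pr3 and -0.57 to 0.86 for Sgpl1, and in type III against type II ECs from -0.12 to 0.80 for Sphk1, -0.11 to 0.076 for S1pr1 and -0.63 to 0.60 for Sgpl1. For unequal steps they ran from -0.81 to 1.02 for Sphk1, -0.029 to 0.48 for Spns2, -0.88 to 1.21 for Sgpl1 and -0.58 to 0.43 for Lpar6, and the Sphk1 to Sgpl1 log2 ratio from -0.085 to 1.39. Depth limits Sphk1 most, at 20 to 72 estimated fragments.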
